A study of Homo sapiens with 30 samples.

Results

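The regions described here are iCLIP peaks of LARP6 that lie around the stop codons of mRNAs. A peak was taken when its centre fell in the last 100 coding nt, the stop codon included, or in the first 100 nt of the 3'UTR of the Ensembl canonical transcript of a protein-coding gene on the same strand, more than 100 nt from the transcript end and outside the mitochondrial genome. The rule uses position only, and no score. It found 740 of the 14334 peaks of the full-length (FL) list, 967 of the 17180 peaks of the ΔNTR list and 800 of the 15870 peaks of the ΔCTR list, 2507 of 47384 in all. They are called stop codon peaks below.

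iCLIP crosslinks a protein to RNA with UV light in living cells, pulls the protein down and sequences the attached RNA. It was run here on myc-tagged LARP6 in U-87 MG cells, an established human glioblastoma line, with 3 replicates per variant. The variants were FL, ΔNTR without the disordered N-terminal region, ΔCTR (DeltaCTR1) without the C-terminal region, ΔLa-module without the folded RNA-binding module, and ΔNTD without both the N-terminal region and the module. All lines, the parental control without a transgene included, carry the label of 60 ng/mL doxycycline for 24 h, and each variant came from a codon-optimised, doxycycline-inducible lentiviral transgene in cells that still have their own LARP6. The replicates reach this report only as 1 merged peak list per variant, from which parental peaks had been subtracted, so no spread between cultures and no p-value can be given. The 95% intervals below cover counting error only. Transcript levels come from the input library of 150-nt paired-end reads of each line (PE150), with 25027075 to 28692476 counts in genes, and are given as CPM, counts scaled to the same total in genes. In these libraries VIM stood at 7073 to 7986 CPM, CD44 at 2079 to 2312 and FN1 at 4328 to 5667, while the glial markers GFAP, SOX2 and S100B reached at most 0.240, 0.0358 and 0.120 CPM, OLIG2 reached 2.52 and the leukocyte marker PTPRC 0.0743.

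A stop codon marks the place where the ribosome ends translation and leaves the mRNA. Upstream of it, elongating ribosomes travel over the coding sequence, and downstream the 3'UTR is not cleared by translation and carries many binding sites for regulatory proteins. LARP6 belongs to the La-related proteins, whose RNA-binding module joins a La-motif to an RNA recognition domain, and is known for binding a stem-loop at the start codon of type I collagen mRNAs.

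Some of the strongest sites covered the stop codon itself. To show the stop codon in its surroundings, 30 nt of the GRCh38 transcript are printed here for 7 of these sites, 5' to 3', with the stop codon in capitals. The windows are placed on the stop codon and not on the peaks, and 5 of the 7 overlap the highest stop codon peak of their site, while those of RTN4 and PKM lie outside it. All 7 windows shown lie within 1 exon, and their positions are chr11:840357-840386 for POLR2L, chr2:54973141-54973170 for RTN4, chr10:71817426-71817455 for PSAP, chr15:72199635-72199664 for PKM and chr17:81510675-81510704 for ACTG1 on the minus strand, and chr14:54420064-54420093 for CDKN3 and chr2:84906409-84906438 for TMSB10 on the plus strand.
POLR2L: cccctggagaagTGAccacgctggaaccca
RTN4: cgcaaagctgaaTGAaaacgcccaaaataa
PSAP: catgtgtggaacTAGgaggaggaatattcc
PKM: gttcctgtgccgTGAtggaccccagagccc
ACTG1: cgcaaatgcttcTAAacggactcagcagat
CDKN3: tctgtatcaagaTAAaggaattcaaatagc
TMSB10: agtgaaatttccTAAgatcctggaggattt
The windows had no common composition. Pyrimidines made up from 33.3% of the bases in RTN4 to 56.7% in PKM, and all 3 stop codons occurred among them.

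Of the 12 highest sites, 5 covered the stop codon and 7 lay further into the 3'UTR. For the 5 highest of these 7 the 30 nt around the centre of the highest stop codon peak are shown, with runs of 5 or more pyrimidines in capitals, because pyrimidine content is compared below. They are chr5:138934165-138934194 in CTNNA1, chr2:63891291-63891320 in UGP2 and chr17:39531391-39531420 in CDK12, all on the plus strand, and chr15:64155942-64155971 in PPIB and chr15:74410513-74410542 in SEMA7A on the minus strand.
CTNNA1: ctaaatacaacactgatactagattccaca
UGP2: attctaaaataggcaggtactttactatgt
PPIB: gccacagggctctgagctgcactggccccg
CDK12: atcatttgccagagcgaggtaatcatctgc
SEMA7A: gagCTCCTTgcctgccaCTTCTTCCagggg
The windows of CTNNA1, UGP2 and CDK12 held no such run and were 50.0% pyrimidine each, and PPIB held none at 53.3%, whereas the SEMA7A window was 63.3% pyrimidine. Among the windows read in this way at 11 of the 12 highest sites, SEMA7A was the 1 with a run. Such runs were common elsewhere, in the slightly longer windows used below for sequence. On the 3'UTR side, 61.7%, 62.1% and 58.8% of the FL, ΔNTR and ΔCTR stop codon peaks held one. In expressed genes without a stop codon peak it was 52.6 to 52.8% of the windows. The highest sites thus held a run less often than either, and the difference was not tested.

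The first comparison asked where around the stop codon the peaks lay. In the FL list 470 stop codon peaks were centred in the 3'UTR and 270 in the coding sequence, so 63.5% lay on the 3'UTR side (Wilson interval, 60.0 to 66.9%). In ΔNTR it was 63.1% (60.0 to 66.1%) and in ΔCTR 64.4% (61.0 to 67.6%), with overlapping intervals. A centre on 1 of the 3 stop codon bases was rare, at 15 FL, 10 ΔNTR and 4 ΔCTR peaks. Peaks were 28.1 to 28.7 nt wide on average, and 104 FL peaks (14.1%, 11.7 to 16.7%), 145 ΔNTR peaks (15.0%) and 130 ΔCTR peaks (16.3%) reached over at least 1 base of the stop codon. Peaks that crossed a splice junction were few, at 31, 41 and 30.

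Peak density, the number of peaks per Mb of transcript sequence, changed from the coding level to the 3'UTR level within this window. On the coding side of the FL list it was 144 per Mb (exact Poisson interval, 127 to 162), close to the 147 per Mb (135 to 159) of the coding flank, the 200 nt before the window, and the 148 per Mb of the remaining coding sequence. On the 3'UTR side it was 270 per Mb (246 to 295), which is 1.88 times the coding side (1.61 to 2.19). It was highest in the 3'UTR flank, the 200 nt after the window, with 324 per Mb (304 to 344), and lower again, 186 per Mb, in the rest of the 3'UTR. The window as a whole therefore stood at 1.39 times the coding flank (1.25 to 1.56) and at 0.632 times the 3'UTR flank (0.573 to 0.695). Stop codon peaks were not a maximum of their own but the lower part of a rise that continued downstream.

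ΔNTR and ΔCTR showed the same step. The 3'UTR side exceeded the coding side 1.84-fold in ΔNTR (1.61 to 2.11) and 1.95-fold in ΔCTR (1.68 to 2.26). In both, the 3'UTR flank was again the densest region, with 410 and 362 peaks per Mb. On the coding side, the ΔNTR list held 190 peaks per Mb against 162 in its coding flank, a ratio of 1.17 (1.03 to 1.34), while the ratio was 0.979 in FL (0.844 to 1.13) and 0.935 in ΔCTR (0.810 to 1.08). These intervals overlapped, and the difference was not tested.

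The step can be placed more closely in the 14039 transcripts with at least 300 coding nt and 400 nt of 3'UTR, which hold 77.6% of the FL stop codon peaks and in which every position is counted over the same transcripts. In bins of 25 nt, FL density stayed between 123 and 171 per Mb over the coding sequence from 300 to 26 nt upstream. It was 160 per Mb in the last 25 coding nt, 234 in the first 25 nt of the 3'UTR and 325 at 76 to 100 nt. ΔNTR rose from 234 to 305 per Mb across the stop codon and ΔCTR from 182 to 245. At the limits of the window nothing changed abruptly. In the FL list 57 peaks were centred in the last 10 nt inside the limit in the 3'UTR and 48 in the first 10 nt outside it, and 29 and 31 at the same distances upstream. Read coverage along the transcripts was not analysed here.

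**Figure D1:**
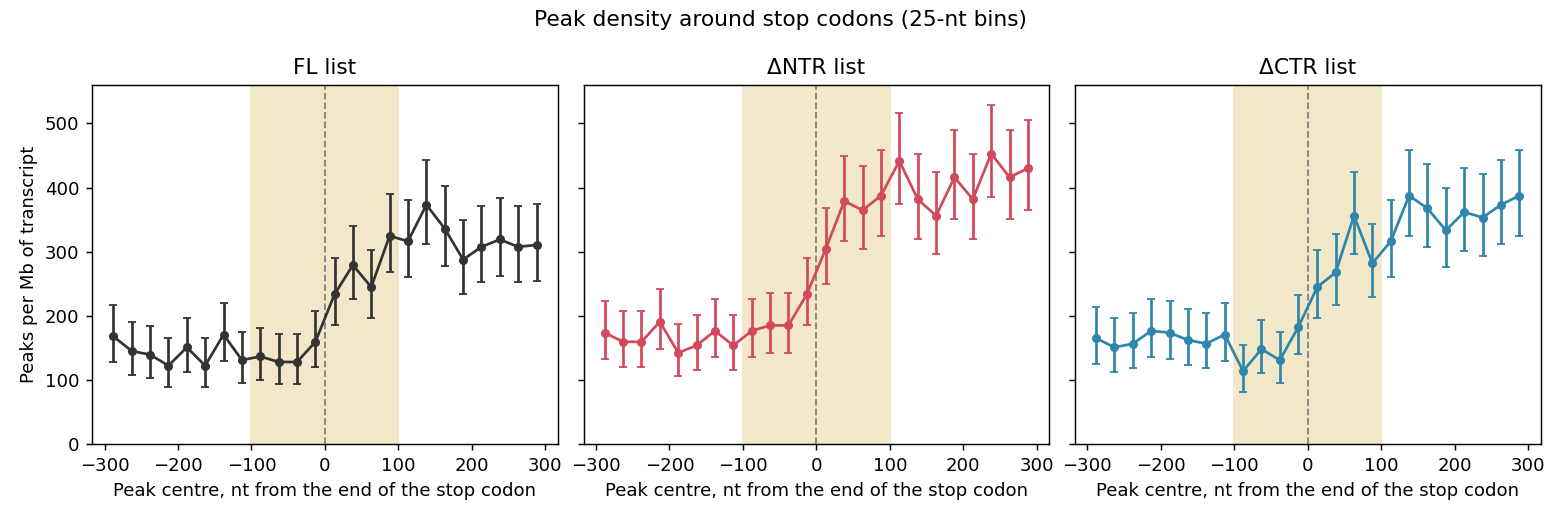
Peaks per Mb of transcript (vertical axis) by distance of the peak centre from the end of the stop codon in nt (horizontal axis, 25-nt bins, negative in the coding sequence), for the FL, ΔNTR and ΔCTR lists over 14039 transcripts; bars are exact Poisson 95% intervals and the shaded band is the 100 nt on each side. In every list the density climbs across the stop codon and levels off in the 3'UTR. In ΔNTR and ΔCTR the last coding bin, 234 and 182 per Mb, lies above the earlier coding bins, with overlapping intervals. In FL the density goes from 160 per Mb in the last coding bin to 325 per Mb in the bin that ends at 100 nt.

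Stop codon peaks made up a similar part of each list. They were 5.16% of the FL list (4.81 to 5.54%), 5.63% of ΔNTR (5.29 to 5.98%) and 5.04% of ΔCTR (4.71 to 5.39%), and they held 5.50%, 5.77% and 5.23% of the summed score. The score of a peak is the authors' summed whole-number value over 3 replicates, with a minimum of 3, and is not scaled to depth. Peaks were called per replicate at 3 counts or more, so a peak at the minimum was called in a single replicate. The mean score of the FL, ΔNTR and ΔCTR stop codon peaks was 7.65, 5.55 and 7.77, near the 7.17, 5.41 and 7.48 of the whole lists. Peaks at the minimum numbered 378, 468 and 362, and peaks of 10 or more numbered 111, 86 and 118. Those at the minimum were 51.1%, 48.4% and 45.3% of the stop codon peaks, beside 53.7%, 54.5% and 51.1% of the whole lists. Those of 10 or more were 15.0%, 8.89% and 14.75%, beside 13.5%, 8.15% and 14.74%. The ΔNTR list thus had the most stop codon peaks and the fewest strong ones. The whole ΔNTR list likewise had the most peaks and the lowest share of strong ones.

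The 1783 sites formed by overlapping stop codon peaks of the 3 lists lay in 1317 genes, and 221 genes had a stop codon peak in all 3 lists. Peaks of all 3 lists were found at 216 sites, whereas 345 sites had peaks of FL alone, 541 of ΔNTR alone and 408 of ΔCTR alone. Neither other list overlapped 46.6%, 55.95% and 51.0% of the FL, ΔNTR and ΔCTR stop codon peaks. The shares were 52.5%, 60.9% and 56.2% in the rest of the coding sequence. In the rest of the 3'UTR they were 44.95%, 55.4% and 51.0%, near those of stop codon peaks. In the following, the score of a site is the summed score of all peaks of a list that overlap it, peaks centred outside the window included. The 12 sites with the highest summed score over the lists, all with their highest stop codon peak centred on the 3'UTR side, held 21.0% of the FL score of all sites.

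CTNNA1, which encodes α-catenin, the link between cadherin adhesions and actin, had the highest site. Its FL, ΔNTR and ΔCTR scores were 305, 97 and 355 (chr5:138934163-138934189, plus strand), 90 nt into a 3'UTR of 945 nt. FL and ΔCTR were high and ΔNTR low, while the transcript was at 428, 413 and 415 CPM in the 3 lines. The whole canonical transcript scored 327, 131 and 381, so the site held a smaller share of the gene's score in ΔNTR than in FL or ΔCTR. POLR2L, a small subunit shared by the nuclear RNA polymerases, followed with 130, 122 and 214 at a site that ran from the stop codon into the 3'UTR (chr11:840269-840381, minus strand). All of its FL and ΔCTR score lay at this site, and at 67.3 to 83.7 CPM it was the least abundant transcript among the 12. UGP2, which makes the UDP-glucose used for glycogen, scored 158, 42 and 87, and no other part of its transcript had an FL peak.

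In 10 of the 12 sites the ΔNTR score was the lowest of the 3 lists, and in 7 when the stop codon peaks alone were summed, which changed the values of 6 sites. These scores are unscaled, and the ΔNTR list had the lowest total, 92958 against 102788 in FL and 118751 in ΔCTR. Scaling by these totals changes the order at some sites, such as POLR2L. Across the lists, ΔNTR scored below FL at 73.7% of the 935 sites with 1 peak per list and a mean of 10 or more. CDK12, a kinase of the elongating RNA polymerase II, scored 85, 23 and 119 in the same order. PPIB, a prolyl isomerase of the endoplasmic reticulum, had 69, 61 and 112, and ATP6V0D1, a subunit of the vacuolar proton pump, had 63, 55 and 90. At ATP6V0D1 the peaks of both mutants were centred beyond the window, and at SEMA7A, a membrane-anchored semaphorin with 94, 64 and 79, that of ΔCTR was. AKAP12, a scaffold for protein kinase A, had 92, 60 and 62 (28 in ΔNTR from stop codon peaks alone), and PSAP, the precursor of lysosomal saposins, had 73, 47 and 69. PKM, the pyruvate kinase of glycolysis, had 100, 33 and 49, but its stop codon peaks alone gave 19, 25 and 49, with FL lowest, since most of its FL score at this site came from a peak centred outside the window.

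The 2 sites where ΔNTR was highest both covered the stop codon. PFN1, encoding the actin-monomer binding protein profilin, had an FL score of 51, a ΔNTR score of 104 and a ΔCTR score of 33. Its stop codon peaks alone gave 22, 87 and 33, so ΔNTR was above FL either way, while ΔCTR lay below FL with all peaks and above it with these alone. The transcript was at 615, 692 and 636 CPM. RTN4, a reticulon that shapes the endoplasmic reticulum, scored 75, 85 and 53 (chr2:54973054-54973172, minus strand), and 60, 72 and 53 from stop codon peaks alone. Because the lists are not scaled to depth, the scores of a site are set beside the list totals below.

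**Figure D2:**
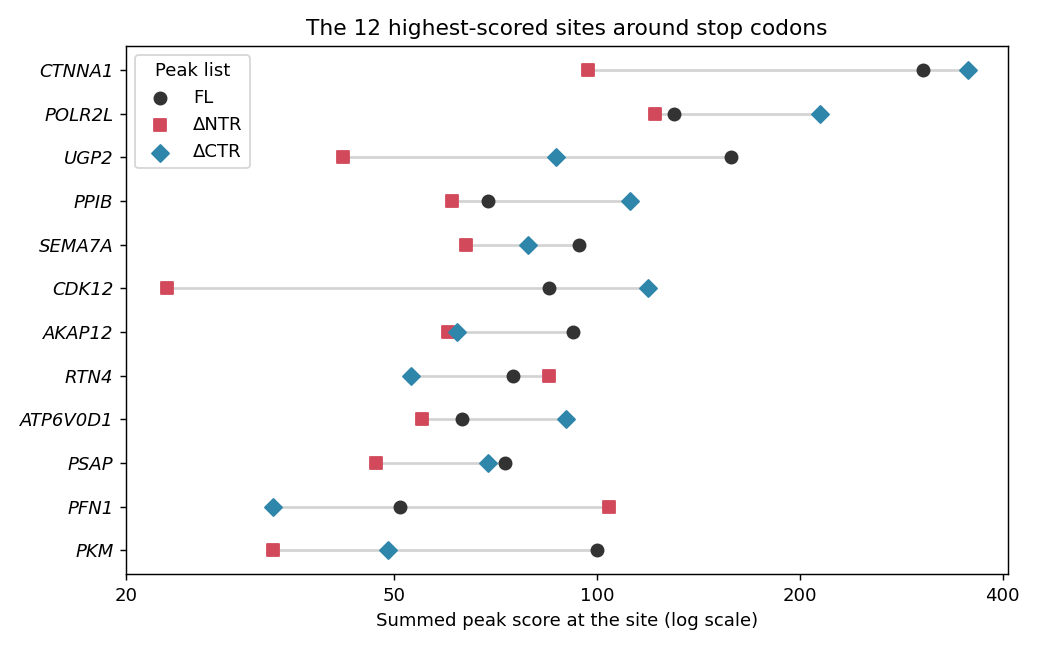
Summed peak score on a log scale (horizontal axis) at the 12 highest-scored stop codon sites (vertical axis, by gene) in the FL, ΔNTR and ΔCTR lists, 1 value per pooled list, from all peaks that overlap the site. ΔNTR lies lowest at 10 sites and highest at PFN1 and RTN4, and CTNNA1 spans 97 in ΔNTR to 355 in ΔCTR. Scores are not scaled to the list totals, of which that of ΔNTR is the lowest.

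Of the 1783 sites, 274 covered the stop codon, and 5 of the 8 highest of these were among the 12 above. The others were ACTG1 (γ-actin) with FL, ΔNTR and ΔCTR scores of 39, 42 and 34, CDKN3 (a phosphatase of cyclin-dependent kinases) with 37, 19 and 48, and TMSB10 (thymosin β10, which sequesters actin monomers) with 35, 38 and 26. CDKN3 was unlike ACTG1 and TMSB10 in that its transcript was scarcer, at 105 to 125 CPM against 4444 to 4577 for ACTG1 and 1109 to 1232 for TMSB10, and that its site held the whole of its FL and ΔNTR score. ACTG1 has near-identical copies in the genome, as do the tubulins and ribosomal protein genes named below, and the assignment of their peaks is uncertain.

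The next comparison asked whether FL sites were found again in the deletion mutants. A ΔNTR peak overlapped 308 of the 740 FL stop codon peaks by at least 1 nt, 41.6% (38.1 to 45.2%), and a ΔCTR peak overlapped 293, 39.6% (36.1 to 43.2%). Elsewhere on all canonical transcripts, with or without a stop codon peak, the shares were 34.0% (32.7 to 35.4%) and 37.2% (35.9 to 38.6%) for the rest of the coding sequence. For the rest of the 3'UTR they were 40.3% (39.0 to 41.5%) and 43.5% (42.2 to 44.7%). For ΔNTR the share was 35.6% (30.1 to 41.4%) on the coding side and 45.1% (40.7 to 49.6%) on the 3'UTR side, with overlapping intervals, and for ΔCTR it was 35.2% and 42.1%.

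Overlap went with the score of the FL peak far more than with its place. At a score of 3 a ΔNTR peak overlapped 20.9% of 378 FL stop codon peaks and a ΔCTR peak 20.4%. At scores of 4 to 9 the shares were 51.8% (45.6 to 57.9%) and 45.02% (39.0 to 51.2%) of 251, and at 10 or more they were 89.2% and 92.8% of 111. In the middle class ΔNTR overlapped stop codon peaks more often than peaks in the rest of the coding sequence, 43.0% (40.6 to 45.4%), and the difference was not tested. Of the strong FL stop codon peaks, 12 had no ΔNTR peak and 8 no ΔCTR peak over them.

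**Figure D3:**
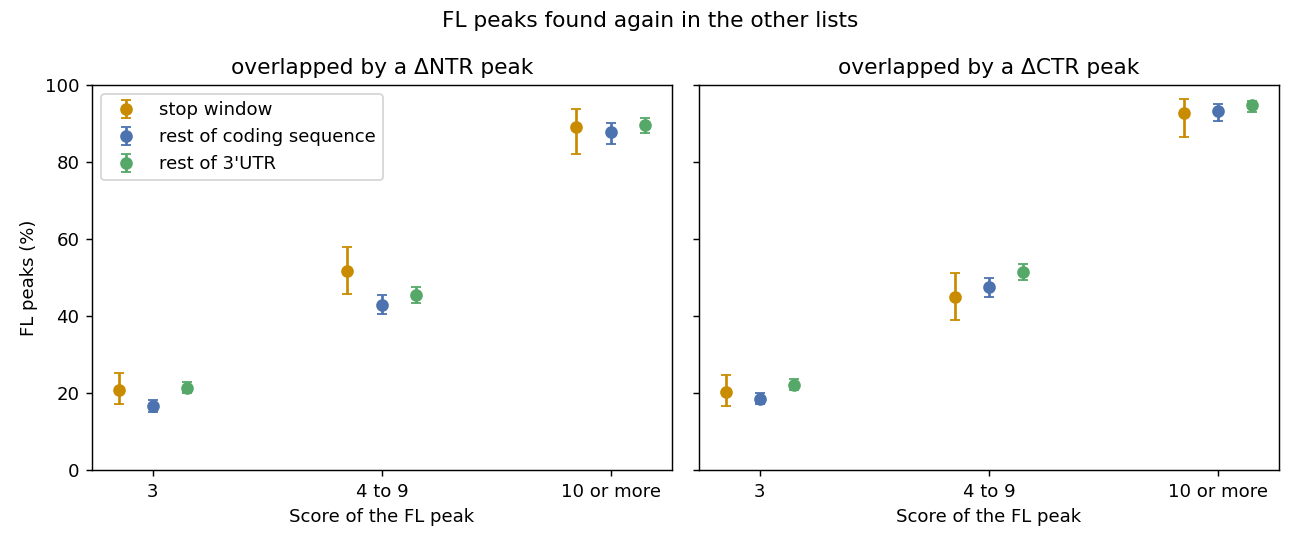
Share of FL peaks in % (vertical axis) overlapped by a ΔNTR peak (left) or a ΔCTR peak (right), by the score of the FL peak (horizontal axis), for stop codon peaks and for the rest of the coding sequence and of the 3'UTR; bars are Wilson 95% intervals. The share climbs from 20.9% to 89.2% with the score for ΔNTR at stop codons, and the 3 regions lie close together within each score class.

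Conversely, an FL peak overlapped 33.4% of the 967 ΔNTR stop codon peaks. The share for ΔNTR peaks was 28.2% in the rest of the coding sequence and 32.7% in the rest of the 3'UTR. For ΔCTR peaks the shares were 35.8% at stop codons, 32.4% and 36.8%. The remaining 644 ΔNTR stop codon peaks overlapped no FL peak. Of these, 24.2% (21.1 to 27.7%) had the centre of an FL peak within 100 nt, as did 19.8% (16.6 to 23.5%) of the 514 such ΔCTR peaks. In the rest of the coding sequence the shares were 15.6% and 15.0%, and in the rest of the 3'UTR 26.9% and 24.8%. Most of the mutant peaks without an FL overlap were therefore not next to an FL peak, here as in the other regions. Of the 644 ΔNTR peaks, 386 stood at a score of 3. FL likewise had 432 stop codon peaks without a ΔNTR overlap and 447 without a ΔCTR overlap, so these counts show no gain of sites.

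The strongest stop codon peaks found in a single list scored 8 to 15. In FL they were S100A10, a protein partner of annexin A2, with a score of 13, the myosin chaperone UNC45A with 10 and SNAPIN, a protein of vesicle fusion, with 8. In ΔNTR they were FN1 (fibronectin) with 15 over the stop codon, ACTN4 (an actin crosslinker) with 14 and BRI3 with 13. In ΔCTR they were TIMM17A, a mitochondrial import protein, with 12, and FEM1C and DPY19L4 with 11 each. FEM1C, which recognises substrates for a ubiquitin ligase, had no FL or ΔNTR peak anywhere on its canonical transcript, whereas the whole canonical transcript of FN1 carried 493, 604 and 716 in the FL, ΔNTR and ΔCTR lists.

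At 134 stop codon sites exactly 1 peak of each list overlapped the others, and here scores can be compared peak by peak. Summed over them, FL scored 2216, ΔNTR 1385 and ΔCTR 2376, that is 0.625 and 1.07 times FL. The median ratio per site was 0.800 for ΔNTR (quartiles 0.500 and 1.31), which was lower than FL at 81 sites, equal at 11 and higher at 42. For ΔCTR it was 1.00 (0.750 to 1.67), with 53 sites lower, 15 equal and 66 higher. At all 2406 such sites of the lists the summed ratios were 0.648 and 1.14, with medians of 0.750 and 1.07. CTNNA1 alone moved the ΔNTR sum, which was 0.674 without it. The ΔNTR ratio was 0.760 on the coding side, over 50 sites, and 0.578 on the 3'UTR side, over 84, with the same median of 0.800 on both sides.

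**Figure D4:**
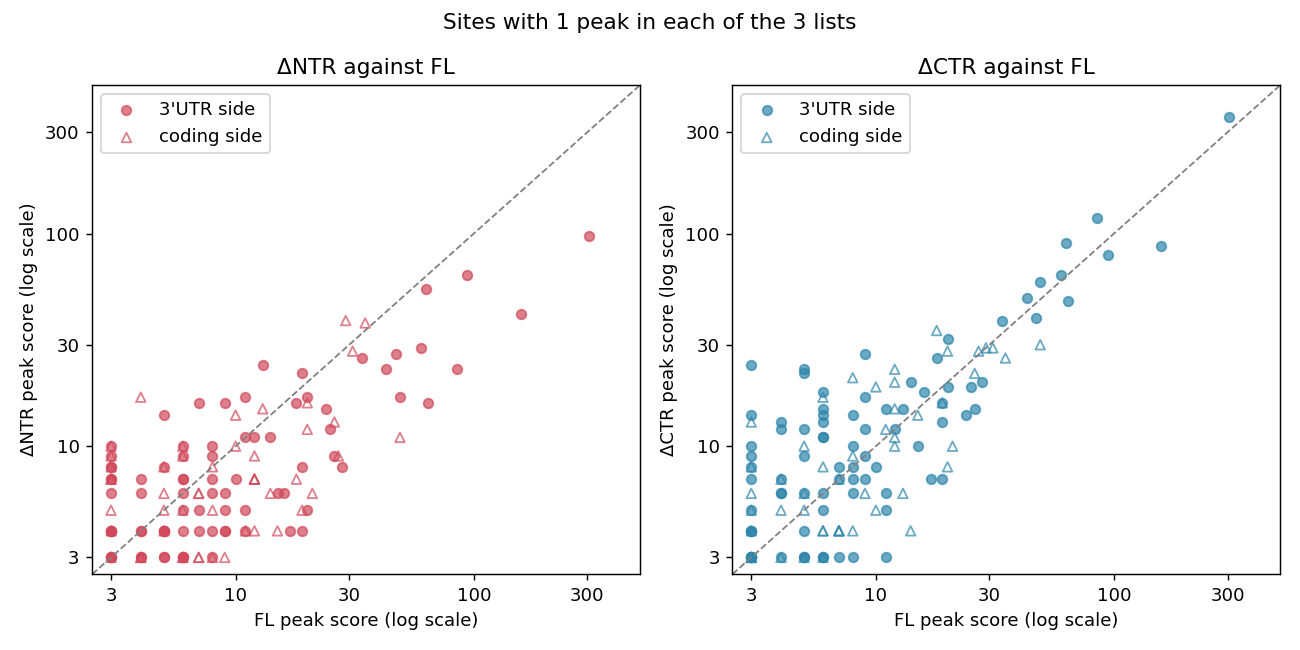
ΔNTR score (left) and ΔCTR score (right) against FL score at the 134 stop codon sites with 1 peak in each list, both axes logarithmic; filled circles are centred in the 3'UTR, open triangles in the coding sequence, and the dashed line marks equal scores. The 7 sites that scored 50 or more in FL all lie under the line for ΔNTR, and 3 of them for ΔCTR. They were picked by their FL score, which favours lower scores in the other lists, so no conclusion is drawn from these counts. Of all 935 sites of the lists that averaged 10 or more, 73.7% were lower in ΔNTR than in FL and 39.3% in ΔCTR.

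To set single sites apart from the difference between the lists, scores were divided by the list total, at sites that averaged 10 or more over the lists. On this scale 19 of the 56 stop codon sites were at least 2-fold lower in ΔNTR than in FL (33.9%), beside 33.5% of all 935 such sites, and 4 were at least 2-fold higher (7.14%), beside 8.24%. In ΔCTR 7 were lower (12.5%) beside 12.6%, and 7 were higher (12.5%) beside 12.5%. The stop codon sites thus moved as often as sites anywhere in the lists. The median of the share ratio was 0.654 for ΔNTR (0.651 over all 935 sites) and 0.882 for ΔCTR (0.989).

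The sites with the lowest ΔNTR share lay in ACTR2, a subunit of the actin-nucleating Arp2/3 complex (19 in FL, 4 in ΔNTR), ZDHHC16, a palmitoyltransferase (49 and 11), CARHSP1 (64 and 16), the proteasome subunit PSMA4 (20 and 5) and CNOT1, the scaffold of the deadenylase complex (19 and 5). Those with the highest lay in the splicing GTPase EFTUD2 (3 in FL, 9 in ΔNTR), the chaperone HSPA8 (5 and 14), the glycolytic enolase ENO1 (7 and 16), ATP5PB of the ATP synthase (13 and 24) and the integrin ITGB1 (9 and 16). By score, ΔNTR was above FL at 11 of the 56 sites, 3 on the coding side and 8 on the 3'UTR side, on which 37 of the 56 lay.

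For ΔCTR the lowest shares were at ACTR2 (19 in FL, 7 in ΔCTR), S100A6 (20 and 8), PKM at a second site upstream of the stop codon (13 and 6), TTC19 (21 and 10) and ATP5F1B (11 and 6). The highest were at EFTUD2 (3 and 24), the potassium channel KCNMA1 (5 and 23), HLA-DPA1 (5 and 22), the RNA ligase RTCB (6 and 18) and RER1, which returns proteins to the endoplasmic reticulum (9 and 27). ACTR2 was at the low end and EFTUD2 at the high end against FL in both comparisons, which share the FL values. Transcript levels at these genes differed little between the lines. EFTUD2, for example, was at 230, 216 and 229 CPM in the FL, ΔNTR and ΔCTR lines, and KCNMA1 at 297, 327 and 310.

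How often a gene carried a stop codon peak rose with the level of its transcript. Among the genes with more than 100 nt of 3'UTR, an FL stop codon peak was found in 1 of 6925 genes under 1 CPM in the FL line, in 1.92% of those at 10 to under 50 CPM (1.55 to 2.36%), in 5.19% at 50 to under 100 CPM (4.32 to 6.22%) and in 16.6% at 100 CPM or more (15.1 to 18.1%). In the highest class the share was 21.9% for ΔNTR (20.3 to 23.7%) and 17.2% for ΔCTR (15.7 to 18.8%). The interval of ΔNTR lay above those of FL and ΔCTR there. Over all genes at 10 CPM or more the shares were 6.49%, 8.39% and 7.25%. Transcript abundance and binding cannot be told apart in counts of peaks.

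**Figure D5:**
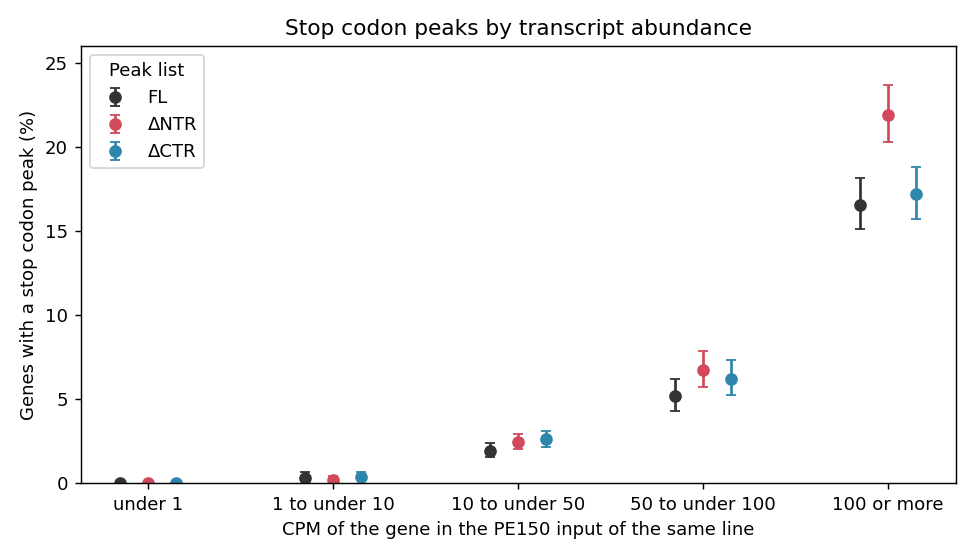
Share of genes with a stop codon peak in % (vertical axis) by class of CPM in the PE150 input library of the same line (horizontal axis), for the FL, ΔNTR and ΔCTR lists; bars are Wilson 95% intervals. The share is near 0 under 10 CPM and reaches 16.6%, 21.9% and 17.2% at 100 CPM or more.

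A stop codon peak was rarely the gene's only one. In FL, 136 of 593 genes with a stop codon peak (22.9%) had no other peak on the canonical transcript, the median gene had 4 peaks, and 210 also had a peak in the 3'UTR flank. The stop codon peak was the single highest of the transcript in 215 genes (36.3%). In ΔNTR these last counts were 268 of 762 genes (35.2%) and in ΔCTR 279 of 661 (42.2%). Most of the genes had 1 stop codon peak, and 22, 36 and 23 genes in FL, ΔNTR and ΔCTR had 3 or more.

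Gene groups were read against the shares of all genes just given, 16.6%, 21.9% and 17.2% in FL, ΔNTR and ΔCTR at 100 CPM or more and 6.49%, 8.39% and 7.25% at 10 CPM or more. These classes are open-ended and were not matched to the level of a group, so a higher share in a group cannot be told apart from higher abundance. Of 30 expressed genes of the actin cytoskeleton and adhesion, 14 had a stop codon peak in FL (46.7%, 30.2 to 63.9%), 19 in ΔNTR and 15 in ΔCTR, with 13 of 28, 19 of 28 and 15 of 28 at 100 CPM or more. Their median level was 598 CPM in the FL line. CTNNA1 gave 305 of the group's FL score of 508, 108 of 378 in ΔNTR and 355 of 511 in ΔCTR, and ACTG1, PFN1 and the intermediate filament gene VIM followed. Of 27 expressed collagen and matrix genes, with a median level of 514 CPM in the FL line, 9 had a stop codon peak in FL (33.3%, 18.6 to 52.2%). In ΔNTR and ΔCTR it was 13 and 12 of 26. The summed score of this group's peaks was 63, 126 and 93. MMP2, a gelatinase, gave 15, 38 and 19 and the membrane protease MMP14 3, 18 and 11, both highest in ΔNTR. The collagen VI gene COL6A1, with 3, 11 and 19, was highest in ΔCTR, and SPARC, a collagen-binding matrix protein, with 9, 5 and 10, was lowest in ΔNTR. For MMP2 and MMP14 the level was 1720 and 723 CPM in the FL line and 1796 and 700 in the ΔNTR line.

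COL1A1, the type I collagen α1 chain, had no FL stop codon peak and 1 peak of score 4 each in ΔNTR and ΔCTR at separate places, while its canonical transcript carried summed scores of 452, 373 and 737 for FL, ΔNTR and ΔCTR. COL1A2 likewise had none in FL or ΔNTR and 2 in ΔCTR, with scores of 4 and 3. These 2 genes were looked up because LARP6 is known for binding their mRNAs, after their values could be seen.

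Of 87 cytosolic ribosomal protein genes, taken by symbol, 48 had a canonical 3'UTR of more than 100 nt, and only these were counted. Genes with a shorter 3'UTR could still hold stop codon peaks on the coding side. RPS21, for example, had an FL stop codon peak of score 6 and a 3'UTR of 54 nt. The shares below leave such genes out. Of the expressed genes among the 48, 7 of 44 had a stop codon peak in FL (15.9%, 7.93 to 29.4%), 7 of 43 in ΔNTR and 11 of 43 in ΔCTR. Their median level was 399 CPM in the FL line. At 100 CPM or more it was 7, 7 and 11 of 39, that is near the share of all such genes in FL. RPL37A was the highest of them with 37, 48 and 30, on a canonical transcript with a 3'UTR of 2682 nt. Translation initiation and elongation factors had a stop codon peak in 7, 8 and 8 of 26 genes, led by PABPC1, the poly(A)-binding protein, with 31, 22 and 14, and by EIF5A, which helps ribosomes past stalls, with 19, 10 and 10.

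The factors that act at stop codons themselves, those of translation termination, ribosome recycling and nonsense-mediated decay, had shares whose intervals included those of all genes at 10 CPM or more. In FL 1 of 23 genes had a stop codon peak (4.35%, 0.772 to 21.0%), GSPT1, which encodes the release factor eRF3a, with a score of 3. In ΔNTR it was 4 (17.4%, 6.98 to 37.1%), among them the release factor ETF1 with 4, and in ΔCTR 1. Only 8 of the 23 genes were at 100 CPM or more in the FL line. The LARP family had no stop codon peak among 7 expressed genes in any of the 3 lists (upper Wilson limit 35.4%), and selenoprotein genes, which read an in-frame UGA as selenocysteine, had 0 of 11, 1 of 12 and 1 of 11.

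Other groups of abundant mRNAs were counted in the same way. Chaperones had a stop codon peak in 9, 10 and 9 of 29 genes, with PPIB, HSP90AA1, HSPA8 and HSP90B1 as the highest. Glycolytic enzymes had 4, 7 and 5 of 15, with PKM at 32, 40 and 55 over all of its stop codon peaks, ENO1 at 18, 16 and 15 and LDHA at 10, 22 and 8. Splicing factors of the hnRNP and SR families had 5, 7 and 5 of 31, proteasome subunits 6 of 24, 5 of 23 and 5 of 23. Tubulins had 3, 4 and 7 of 7, the last the highest share of any group (100%, 64.6 to 100%). The intervals of every group overlapped between the lists.

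The stop codons of genes with a stop codon peak were like those of other expressed genes. Among genes at 10 CPM or more in the FL line, TGA ended 47.3% (43.2 to 51.4%) of the 571 genes with an FL stop codon peak and 48.5% (47.4 to 49.6%) of the 8230 without. TAA ended 27.7% and 30.2%, and TAG 25.04% (21.7 to 28.8%) and 21.3% (20.4 to 22.2%). In ΔNTR the TAG share was 24.2% beside 21.3%, and in ΔCTR 23.0% beside 21.4%. The base after the stop codon, which influences how efficiently it is read, was G in 33.8% (30.04 to 37.8%) of FL genes with a peak and in 29.3% (28.3 to 30.3%) of those without, in 33.9% (30.6 to 37.4%) and 29.2% (28.2 to 30.2%) for ΔNTR, and in 30.7% and 29.5% for ΔCTR. It was T in 13.8% (11.5 to 16.5%) of ΔNTR genes with a peak against 18.4% (17.6 to 19.3%), and C in 17.8% (15.1 to 21.0%) of ΔCTR genes with a peak against 22.6% (21.7 to 23.5%). These differences were not tested. Genes with a peak had shorter 3'UTRs, with a median of 1199 nt in FL against 1634 nt, and higher levels, with a median of 153 against 46.8 CPM, so the sets differ in more than binding.

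Sequence around the peaks was read in 31 nt centred on them and compared with all positions on the same side in the expressed genes without a peak. On the 3'UTR side pyrimidines made up 55.2%, 55.3% and 53.5% of the bases for FL, ΔNTR and ΔCTR, against 51.1 to 51.2% in the other genes. On the coding side the shares were 47.6%, 49.9% and 47.7% against 46.1 to 46.2%. With the sides weighted as the peaks were, the excess for FL, ΔNTR and ΔCTR was 3.05, 4.04 and 2.07 percentage points, while single peaks varied with an SD of 12.2 to 13.2 points. On the 3'UTR side of FL, A made up 23.0% of the bases against 25.7% in the other genes.

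Runs of pyrimidines gave a larger contrast. A run of at least 8 C or T stood in 22.1% (18.6 to 26.1%) of the FL windows on the 3'UTR side, in 22.3% (19.2 to 25.8%) for ΔNTR and in 16.5% (13.6 to 20.0%) for ΔCTR, while 13.1 to 13.3% of 31-nt windows taken every 10 nt in the other genes held one. On the coding side the shares were 7.41% (4.85 to 11.2%) in FL, 11.8% (8.82 to 15.5%) in ΔNTR and 8.42% (5.72 to 12.2%) in ΔCTR, against about 7%. ΔNTR was thus the only list of the 3 whose coding-side interval lay above the level of the other genes, and its interval overlapped those of FL and ΔCTR. Runs were searched on the transcript strand, and the longer ones include the shorter. TTTTT was present in 7.66%, 9.02% and 7.96% of the 3'UTR-side windows against 7.08 to 7.13%, and the poly(A) signal AATAAA in 0.638%, 0.984% and 0.583% against 1.92 to 1.97%.

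Predicted folding differed little. The median minimum free energy of 61 nt around the centres was -11.2 kcal/mol on the 3'UTR side of FL, -10.6 in ΔNTR and -10.6 in ΔCTR, against -10.5 at the middle of that side in the other genes. On the coding side it was -12.5, -12.9 and -12.2 against -11.4 to -11.5. The windows of the peaks were also richer in G and C, with a median of 54.1% against 50.8% on the coding side of FL and 49.2% against 45.9% on the 3'UTR side.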

How the data were processed

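The authors discarded iCLIP reads that matched rRNA or tRNA and aligned the rest with STAR to GRCh38.p13. The labels name STAR 2.7.10b, a version the authors state for the input libraries. They removed duplicates with UMI-tools, called peaks per replicate with Clippy, merged the 3 replicates with summed scores and subtracted parental peaks with bedtools (2.30.0). The deposited score is that sum, at least 3, unscaled. iCLIP depth is unknown here. The authors' input tables hold deposited counts per gene from STAR, from which CPM in genes was computed, on the strand with at least 4 times the other's total.

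Peak centres were placed on Ensembl canonical transcripts of GENCODE 44 (GRCh38), a later release than the authors used. Intervals are of 95%: Wilson for shares, exact Poisson for counts and exact binomial for ratios of counts. Input counts lack molecular identifiers, so intervals are minimum errors. Overlap means at least 1 nt on the same strand. Expressed means at least 10 CPM in the PE150 input, in the line of the list for shares of genes and in the FL line for stop codons and sequence. Folding used ViennaRNA 2.7.2, and other steps Python 3.11.15, NumPy 2.4.6 and SciPy 1.17.1. Placement and intervals were tested on simulated data.

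The peaks, gene lists and comparisons were chosen with earlier results of these data known. Named were the 12 sites of highest summed score, the 8 highest over a stop codon, the 5 highest and lowest share ratios per mutant, the 3 strongest peaks found in 1 list, and up to 4 genes per list. The sequence of 1 of these sites is not reported here.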

Additional observations from a re-analysis of the deposited data

Results flagged for a closer look

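The lists of the variants without the La-module entered no comparison above, yet held stop codon peaks after the authors' subtraction of parental peaks. By the same rule the ΔLa-module list had 36 of its 636 peaks around stop codons (5.66%, Wilson interval 4.12 to 7.74%), in 34 genes, and the ΔNTD list 12 of 291 (4.12%, 2.37 to 7.07%), in 11 genes. Of these, 28 and 10 stood at the minimum score of 3, and the highest scored 6 and 7. On the 3'UTR side lay 21 of the 36 and 9 of the 12, and 2 and 1 reached over the stop codon. A peak of either list overlapped 25 of the 1783 sites of the other variants. At the PFN1 site, which scored 51 in FL and 104 in ΔNTR (22 and 87 from peaks centred in the window), the ΔLa-module peaks summed to 7 and the ΔNTD peaks to 10. At VIM, 86 nt upstream of the stop codon, ΔLa-module peaks summed to 11 beside 48 in FL, 21 in ΔNTR and 23 in ΔCTR, of which 48, 3 and 8 were from peaks centred in the window. Other such sites lay in abundant mRNAs, such as TMSB10 at 1109 to 1232 CPM, with 3 in ΔLa-module, and ENO1 at 3049 to 3552 CPM, with 4 in ΔNTD, and also in scarcer ones, such as AGTRAP at 29.0 to 34.8 CPM, with 3 in ΔLa-module. No site with a peak of either list was CTNNA1, POLR2L or UGP2, the 3 highest.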

How the results depend on the processing

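No replicate could be left out, since each list pools its 3 replicates. No paired analysis was possible because replicate numbers are lost in a merged list. At the weak end of the lists, 45.3 to 51.1% of stop codon peaks stood at the minimum score of 3. Since each replicate's peaks needed at least 3 counts before scores were summed, such peaks were called in a single replicate. Of 105 other settings tried, 59 left a count within 1.5 times or a value inside its interval (for pyrimidine content, 1 SD between peaks), 45 moved it and 1 turned its direction. A narrower or wider window and a score threshold change counts by construction.

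For FL, ΔNTR and ΔCTR in this order, a window of 50 nt on each side held 361, 479 and 380 peaks and one of 200 nt 1549, 1921 and 1702. A score above 3 left 362, 499 and 438 peaks and a score of at least 10 left 111, 86 and 118. The share on the 3'UTR side was 57.7, 57.9 and 58.5% over every protein-coding transcript, 69.4, 69.8 and 77.1% at a score of at least 10, and 70.7 and 68.3% for FL and ΔNTR at a score above 3. The share over the stop codon was 17.1, 24.4 and 22.03% at a score of at least 10, and 17.4% for ΔNTR at a score above 3. The density over the coding flank was 1.63 for FL at a score of at least 10 and 1.94 for ΔNTR at a score above 3. The density over the 3'UTR flank was 0.553 for FL at a score above 3, and 0.476 and 0.437 for ΔNTR and ΔCTR at a score of at least 10. The cause of these shifts was not tested.

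The share of FL stop codon peaks found again in ΔNTR and ΔCTR was 27.03 and 26.8% when at least 50% of both peaks had to overlap, 52.2 and 53.3% at scores above 3, and 58.4 and 56.8% when a centre within 100 nt was enough. With stop codon peaks alone summed at a site, a setting chosen after seeing the data, ΔNTR was lowest by unscaled score at 7 of the 12 highest sites in place of 10. The ΔNTR ratio at shared sites was 0.691 with scores as shares of the list total, 0.536 at a mean score of at least 10, 0.674 without CTNNA1 and 0.567 at sites of 50% reciprocal overlap. The ΔCTR ratio of 1.07 turned to 0.928 with scores as shares of the list total, since the ΔCTR list has the larger total. In the input of 50-nt reads (SE50, small RNA) only 37, 57 and 64 of these genes reached 10 CPM, and 24.3, 28.1 and 29.7% of them had a stop codon peak, and with a score above 3 in the PE150 input 3.40, 4.53 and 4.16%.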
